A study of Sus scrofa with 4 samples.

Results

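The liver builds triglycerides from glycerol 3-phosphate and fatty acids, stores them in lipid droplets and breaks them down again with lipases. The genes described here cover that cycle in piglet liver, with GPAM, AGPAT2, LPIN1, LPIN2, DGAT1 and DGAT2 for synthesis, PNPLA2 and PNPLA3 for hydrolysis, PLIN2 for the droplet surface and ANGPTL4 for the uptake of circulating triglycerides. They were taken as all probe sets whose annotated symbol was one of these 10 names, each probe set being a group of array probes for one transcript. All 10 genes were on the array, with 16 of the 23999 probe sets that entered the test. GPAM had 3 probe sets, LPIN1, DGAT1, PNPLA2 and ANGPTL4 had 2 each, and the other 5 genes had 1 each.

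Livers came from male crossbred pigs, (German Landrace x Large White) x Pietrain, killed at an age of 7 weeks, 2.5 h after a meal. For 21 days the carnitine group had eaten a basal diet with 500 mg of added L-carnitine per kg, and the control group the basal diet alone, which was low in native carnitine. Each diet had 8 pigs, combined into 2 RNA pools of 4 pigs with 1 Affymetrix porcine GeneChip per pool, so that the spread between single pigs cannot be seen. A value is a MAS5 signal, the linear brightness that Affymetrix software computes for a probe set, and it does not give the amount of one transcript relative to another. Probe sets are called bright or dim only by their place on the array.

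In the textbook pathway, GPAM adds the first fatty acid to glycerol 3-phosphate, AGPAT enzymes add the next, lipins remove the phosphate and DGAT enzymes attach the last fatty acid. On the way back PNPLA2, also called ATGL, cleaves the first fatty acid off at the droplet surface. Feeding and insulin are known to favour synthesis, and fasting is known to favour hydrolysis.

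The brighter PNPLA2 probe set was 2.54-fold lower in the carnitine pools, with all carnitine values under all control values. The brightest GPAM probe set was likewise 2.84-fold lower, while PLIN2 was 3.61-fold and the brighter ANGPTL4 probe set 3.38-fold higher. However, the carnitine pools were 5.24-fold apart for PLIN2, and the control pools 3.73-fold apart for that ANGPTL4 probe set. For the enzymes between GPAM and the finished triglyceride, AGPAT2, LPIN1, LPIN2, DGAT1 and DGAT2, the diets differed by at most 1.49-fold on any probe set. None of the 16 probe sets passed an adjusted p of 0.05 in limma, which tests each probe set with an estimate of spread partly shared over all. The adjustment ran over all probe sets, of which 0.00417% passed. An unadjusted p under 0.05 was found for 5 of the 16, against 8.65% of all probe sets. Of these, 3 were higher and 2 lower with carnitine, against 4.72% and 3.93% of all probe sets. Because the genes were chosen with earlier results of these data known, such counts do not test the group.

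**Figure D1:**
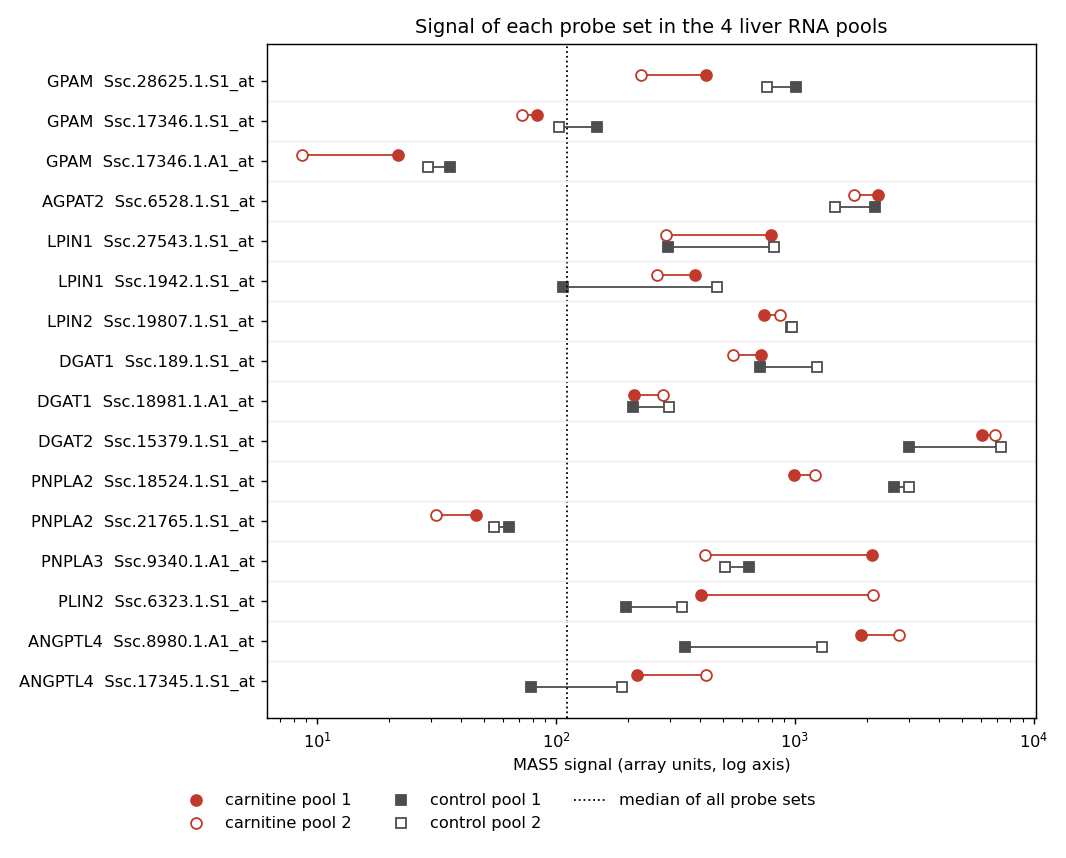
MAS5 signal (log axis, array units) of the 16 probe sets in each liver RNA pool. Circles are carnitine pools, squares control pools, filled symbols pool 1 and open symbols pool 2, bars connect pools fed alike, and the dotted line is the median of all probe sets, 111. The circles lie left of the squares for GPAM and PNPLA2 and right of them for PLIN2 and ANGPTL4, and among the bars those of PLIN2 and PNPLA3 (carnitine) and of LPIN1 (control) are wide.

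GPAM, the acyltransferase of the outer mitochondrial membrane that commits glycerol 3-phosphate to lipid synthesis, was dimmer with carnitine on each of its 3 probe sets. On the brightest, the signals were 423 and 227 with carnitine and 1008 and 767 in controls. The means were 325 ± 139 for carnitine and 887 ± 171 for control (SD, n = 2 pools each). The diets did not overlap, and the lower control pool was 1.81 times as high as the higher carnitine pool, while the carnitine pools themselves were 1.87-fold apart. The log2 ratio of carnitine to control was -1.51 (standard error 0.34, 95% interval -2.30 to -0.71), with an adjusted p of 0.358 in limma.

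The other GPAM probe sets were dimmer than the median of the array. One gave 83.1 and 71.9 with carnitine and 148 and 103 in controls, and the dimmest gave 21.7 and 8.64 with carnitine and 36.1 and 29.0 in controls. Neither overlapped between the diets, but the 95% intervals of their log2 ratios, -1.63 to 0.28 and -3.02 to 0.53, included 0. All 3 probe sets ranked the pools of a diet alike. The study selected GPAM, there called GPAT, from these same arrays for follow-up, so that its direction here is not independent evidence. Its PCR measurement in the single pigs behind the pools also found GPAM lower with carnitine, but without statistical significance.

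AGPAT2, which adds the next fatty acid to make phosphatidic acid, gave 2228 and 1777 with carnitine and 2171 and 1471 in controls. The diets overlapped, and the log2 ratio was 0.15 (95% interval -0.43 to 0.74).

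The lipins remove the phosphate from phosphatidic acid, and LPIN1 also acts in the nucleus as a partner of transcription factors in mouse liver. LPIN1 varied more between pools fed alike than between diets. Its brighter probe set gave 795.5 and 289.8 with carnitine and 293 and 816 in controls, so that each diet had 1 high and 1 low pool. The dimmer one gave 382 and 265 with carnitine and 107 and 469.8 in controls, with the same pools on top. The log2 ratios of the brighter and the dimmer probe set were -0.03 (95% interval -1.41 to 1.36) and 0.51 (-0.99 to 2.002). LPIN2 was far steadier, with 746 and 866 for carnitine and 959 and 970.1 for control. Both carnitine values lay under both control values by a small amount, and the log2 ratio of -0.26 had a 95% interval of -0.74 to 0.21.

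The DGAT enzymes make the finished triglyceride, and DGAT2 is the form tied most closely to newly made fatty acids in mouse studies. The brighter DGAT1 probe set gave 722 and 549 with carnitine and 712 and 1237 in controls, so that the diets overlapped by a narrow margin. Its log2 ratio was -0.58 (standard error 0.31, 95% interval -1.30 to 0.15). The dimmer DGAT1 probe set was level, at 212 and 280.2 with carnitine and 210.5 and 298 in controls (log2 ratio -0.04, 95% interval -0.78 to 0.70).

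DGAT2 gave 6083 and 6885 with carnitine and 3012 and 7274 in controls, where 1 control pool was low and the other above both carnitine pools. Its log2 ratio was 0.47 (95% interval -0.43 to 1.36) with all pools and -0.17 without control pool 1. For AGPAT2, the lipins and the DGAT enzymes each 95% interval included 0 and reached at least 0.74 in size on one side, so that the 4 arrays set no tighter bound on these enzymes.

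PNPLA2, the lipase that starts triglyceride breakdown in adipose tissue and liver, gave 996 and 1215 with carnitine on its brighter probe set and 2592 and 3014 in controls. The means were 1106 ± 155 for carnitine and 2803 ± 298 for control (SD, n = 2 pools each). The lower control pool was 2.13 times as high as the higher carnitine pool, whereas the 2 carnitine pools were 1.22-fold and the 2 control pools 1.16-fold apart. The log2 ratio was -1.34 (standard error 0.20, 95% interval -1.82 to -0.87), with an adjusted p of 0.208 in limma. By its unadjusted p of 0.000272 this probe set ranked 27 among the 23999.

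The other PNPLA2 probe set was dim, at 46.0 and 31.4 with carnitine and 63.7 and 55.0 in controls. It too was lower in both carnitine pools, but the 95% interval of its log2 ratio was wide, from -1.88 to 0.60.

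PNPLA3, a relative of PNPLA2 on lipid droplets whose liver mRNA follows feeding in mice, had no common direction. Its signals were 2107 and 419 with carnitine and 642 and 509 in controls, so that 1 carnitine pool stood above and the other below both controls. The log2 ratio was 0.72 (standard error 0.65, 95% interval -0.82 to 2.25) with all pools and -0.45 without carnitine pool 1.

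PLIN2, the main coat protein of lipid droplets in hepatocytes, gave 405 and 2121 with carnitine and 196 and 336 in controls. The means were 1263 ± 1214 for carnitine and 266 ± 99.0 for control (SD, n = 2 pools each). Both carnitine pools were higher, but they were 5.24-fold apart, and the lower of them was only 1.20 times the higher control. The log2 ratio was 1.85 (standard error 0.70, 95% interval 0.21 to 3.49), with an adjusted p of 0.527 in limma. Leaving out carnitine pool 1 gave 3.05, and leaving out carnitine pool 2 gave 0.66. The unadjusted p was above 0.05 without carnitine pool 2 and without control pool 1.

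ANGPTL4, a secreted inhibitor of lipoprotein lipase, was brighter in both carnitine pools on both of its probe sets. The brighter one gave 1892 and 2726 with carnitine and 348 and 1299.8 in controls, with means of 2309 ± 589.6 for carnitine and 824 ± 673 for control (SD, n = 2 pools each). The lower carnitine pool was 1.46 times the higher control, while the control pools were 3.73-fold apart. The log2 ratio was 1.76 (standard error 0.55, 95% interval 0.46 to 3.06), with an adjusted p of 0.460 in limma.

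The dimmer ANGPTL4 probe set gave 219 and 424 with carnitine and 78.3 and 189 in controls. Its log2 ratio was 1.33 (standard error 0.51, 95% interval 0.13 to 2.52), with an adjusted p of 0.533 in limma. Both ANGPTL4 probe sets ranked the pools of a diet alike. Over the pools left out in turn, the log2 ratio ran from 0.81 to 2.71 on the brighter and from 0.69 to 1.96 on the dimmer probe set, with the lowest values when control pool 1 was the one left out. Without carnitine pool 2 the unadjusted p of both was above 0.05, and for the dimmer one also without control pool 1. For the brighter PNPLA2 and the brightest GPAM probe set it was under 0.05 whichever pool was left out.

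**Figure D2:**
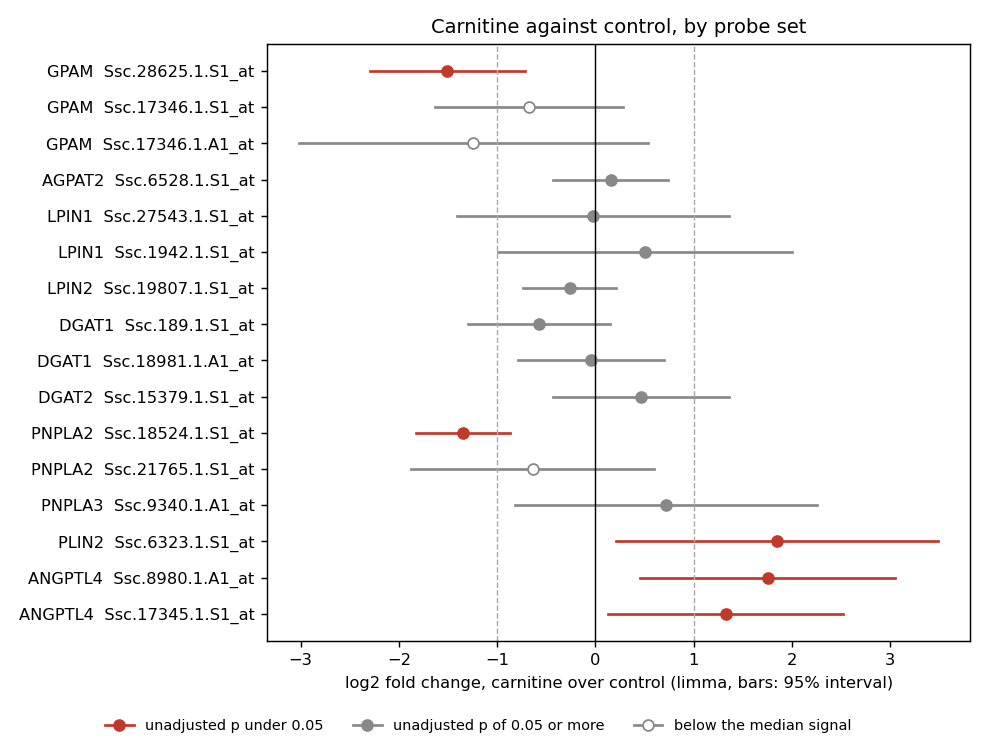
Log2 ratio of carnitine to control for the 16 probe sets (points) with 95% intervals from limma (bars), red at an unadjusted p under 0.05, open for probe sets below the median signal, and dashed lines at 2-fold. The intervals of the brighter PNPLA2 and the brightest GPAM probe set lie below 0, those of PLIN2 and ANGPTL4 above 0, and all others cross 0.

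Set beside the whole array, the pools of the 2 diets separated in 9 of the 16 probe sets, meaning that all 4 pairings of a carnitine with a control pool went one way, against 39.6% of all probe sets. Of the 9, carnitine was higher in 3 and lower in 6, against 19.2% and 20.4% of all probe sets. The lower ones were every probe set of GPAM, PNPLA2 and LPIN2, and the higher ones those of ANGPTL4 and PLIN2. A gene with several probe sets thus counts more than once. Among the 13 probe sets above the median signal 6 separated, against 43.9% of all such probe sets, so that separation alone was near the background. A difference of 2-fold or more was found in 6 of the 16, against 16.0% of all probe sets, with 3 higher and 3 lower, against 8.03% and 7.92%. Among the 13 brighter ones it was found in 5, against 3.65%, and an unadjusted p under 0.05 was found in 5, against 12.0%. The same 5 met both rules: both ANGPTL4 probe sets, PLIN2, the brightest of GPAM and the brighter of PNPLA2. The genes were chosen with earlier results of these data known, so that these shares do not test the group.

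Of the 11999 brighter probe sets of the array, 31 had a log2 ratio as low as GPAM or lower and 52 as low as PNPLA2 or lower. As high as PLIN2 or higher were 27, as high as the brighter ANGPTL4 probe set or higher were 33, and as high as the dimmer one or higher were 94. The median log2 ratio was -0.03 over the 16 probe sets and -0.02 over all. Pools fed alike were 2-fold or more apart in 4 of the 16 probe sets for carnitine and in 5 for control, against 18.6% and 23.6% of all probe sets. Among the 13 above the median signal it was 3 for carnitine and 5 for control, against 2.30% and 7.47% of all such probe sets.

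**Figure D3:**
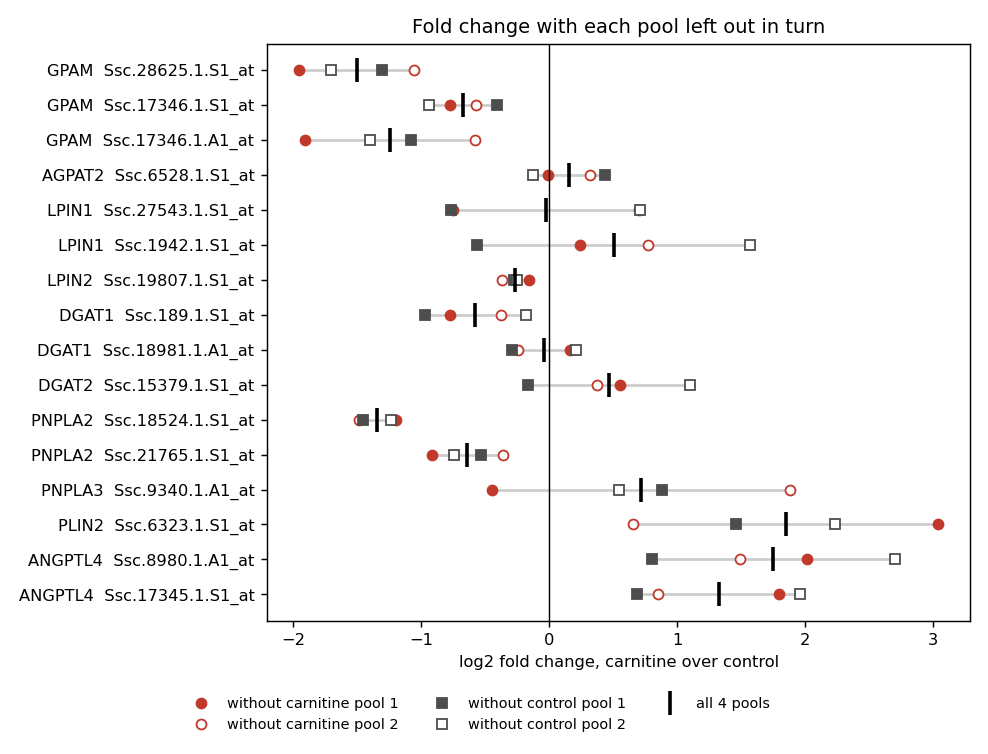
Log2 ratio of carnitine to control with all 4 pools (black ticks) and with each pool left out in turn (red circles for a carnitine pool, grey squares for a control pool, filled for pool 1, open for pool 2). The brighter PNPLA2 probe set stays between -1.49 and -1.20 and the brightest GPAM one between -1.96 and -1.06, while PLIN2 runs from 0.66 to 3.05 and AGPAT2, LPIN1, DGAT2, PNPLA3 and the dimmer DGAT1 probe set cross 0.

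Of 45 further genes of the pathway, 25 had a probe set, with 34 in all. At an unadjusted p under 0.05, 6 of the 34 were higher and 0 lower with carnitine, against 4.72% and 3.93% of all probe sets. The 6 became 1 without carnitine pool 2 and 2 without control pool 1, and 0 passed the adjusted p in limma. The median log2 ratio was 0.08. The 6 belong to 5 genes, of which GPD1 and GK supply glycerol 3-phosphate, AGPAT3 is an acyltransferase, and PLIN3 and CIDEB are droplet proteins.

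GPD1, which makes glycerol 3-phosphate from a glycolytic intermediate, gave 6367 and 7855 with carnitine and 3042 and 4943 in controls (log2 ratio 0.87, standard error 0.27), and the log2 ratio was 0.52 without control pool 1. The study had selected GPD1 from these arrays too, and its PCR measurement in the single pigs found it significantly higher with carnitine. GK, the kinase that makes the same molecule from glycerol, gave 923 and 1712 with carnitine and 779 and 497 in controls on its brighter probe set (log2 ratio 1.02, standard error 0.35), and the log2 ratio was 0.57 without carnitine pool 2. Its dim probe set gave 38.9 and 47.4 with carnitine and 6.49 and 3.16 in controls. For both suppliers of the substrate of GPAM the carnitine pools lay above the controls, whereas for GPAM they lay below.

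The brighter AGPAT3 probe set had a log2 ratio of 0.70 (standard error 0.28) and the dimmer one 0.48 (standard error 0.22). The brighter AGPAT3 probe set gave 1429 and 2051 with carnitine and 864 and 1289 in controls, and its log2 ratio was 0.44 without carnitine pool 2 and 0.41 without control pool 1. GPAT4, another enzyme of the GPAM step, was level (log2 ratio 0.08, standard error 0.22).

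PLIN3, a droplet coat protein related to PLIN2, gave 1047 and 1558 with carnitine and 711 and 834 in controls. CIDEB, a liver protein that helps to load lipid into very low density lipoproteins, gave 1242 and 2485 with carnitine and 949.7 and 1092 in controls. Their log2 ratios were 0.73 (standard error 0.25) and 0.79 (standard error 0.33). Carnitine pool 2 gave the highest signal for PLIN2, PLIN3 and CIDEB, and without it the log2 ratio was 0.44 for PLIN3 and 0.29 for CIDEB. Without carnitine pool 2 the log2 ratio also fell from 0.87 to 0.72 for GPD1 and from 1.02 to 0.57 for the brighter GK probe set. The dim GK probe set gave 3.25 with all pools and 3.10 without carnitine pool 2. RAB18, a small GTPase on droplets, had a log2 ratio of -0.36 (standard error 0.22).

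Among the other genes of lipolysis, ABHD5, the co-activator of PNPLA2, gave 600.4 and 873 with carnitine and 671 and 496 in controls, which overlapped. CES1, a carboxylesterase of the hepatocyte, gave 27958 and 23242 with carnitine and 34719.9 and 30479 in controls, a log2 ratio of -0.35 (95% interval -0.85 to 0.15). LIPA, the acid lipase of lysosomes, overlapped on both probe sets (log2 ratios -0.47 and -0.23). Of the 10 lipolysis probe sets in the list, 0 had an unadjusted p under 0.05, against 8.65% of all probe sets, which is under 1 in 10. Whether PNPLA2 differed from these genes was not tested.

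Among the regulators, SREBF1, which drives lipid synthesis in the fed liver, gave 277 and 219 with carnitine and 103 and 186 in controls (log2 ratio 0.83, 95% interval -0.07 to 1.72). PPARGC1A, a co-activator of fasting genes, gave 207 and 157 with carnitine and 315 and 267 in controls (log2 ratio -0.69, 95% interval -1.39 to 0.01). Both separated the diets, and both intervals included 0. NR1H3, the oxysterol receptor LXR alpha, was level, at 2359 and 1990.5 with carnitine and 2307 and 2265 in controls.

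**Figure D4:**
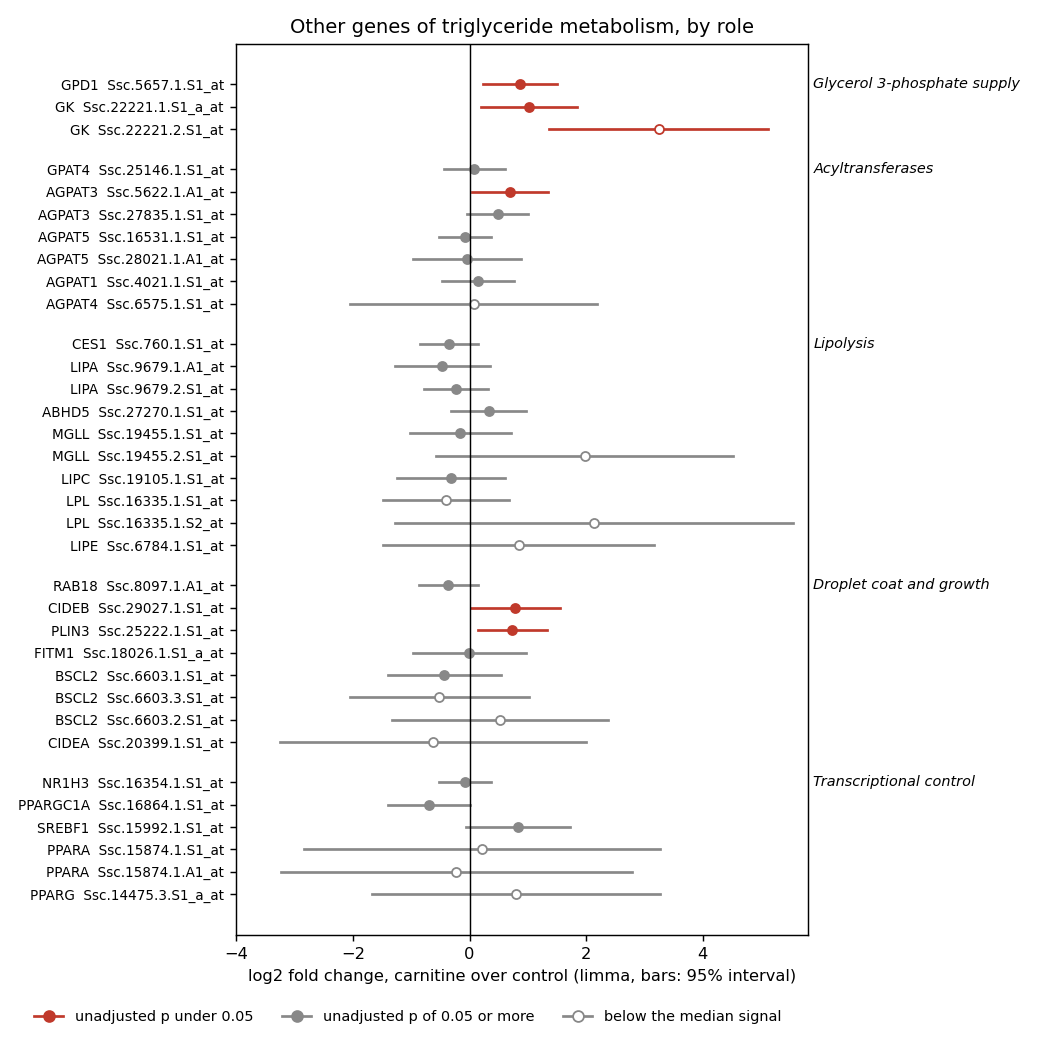
Log2 ratio of carnitine to control for 34 probe sets of 25 other genes of triglyceride metabolism, grouped by role, with 95% intervals from limma, red at an unadjusted p under 0.05 and open for probe sets below the median signal. The red points are GPD1, GK (2 probe sets), 1 probe set of AGPAT3, CIDEB and PLIN3, and all lie above 0.

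For hepatocyte markers 8 of 8 genes lay above the median signal, and their summed signal was 271664 to 306148 for carnitine and 301990 to 330572 for control. Of 6 adipocyte markers, 4 had a probe set and 0 of these lay above the median signal, with summed signals of 147 and 169.6 for carnitine and 203 and 296 for control. In pooled tissue, fewer cells of a type and less RNA per cell cannot be told apart. Median signals ranged from 109 to 114 over the arrays. The ratio of 3' to 5' signal, a sign of RNA integrity, was higher in both carnitine pools for 1 of 2 GAPDH control pairs (18.7 and 16.1 for carnitine, 12.5 and 11.6 for control) and 1 of 2 actin pairs (157 and 136 for carnitine, 91.2 and 86.7 for control). For the other GAPDH pair the ratio of 3' to middle signal was higher in both carnitine pools (5.77 and 5.35 for carnitine, 5.26 and 4.24 for control). The 3' to 5' ratio overlapped for that same GAPDH pair (9.65 and 11.1 for carnitine, 10.2 and 9.04 for control). It also overlapped for the other actin pair (0.332 and 1.05 for carnitine, 0.366 and 0.220 for control). The part of RNA integrity in the differences above was not tested.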

How the data were processed

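Per the labels, the pooled liver RNA was biotin-labelled and read in 1 colour on the porcine arrays. The deposited values are MAS5 signal intensities, linear and not logged, made by the authors. Their processing notes list the programs GCOS (1.1.2) and Affymetrix Expression Console (1.1) along with MAS5 (5.0). The sources used here do not give the scaling target. After 124 array controls were removed, 23999 probe sets were converted to log2 without a pseudocount or a signal filter. Diets were compared by limma (version 3.58.1, R version 4.3.3), with a trended eBayes fit on 2 residual degrees of freedom, Benjamini-Hochberg adjustment over every probe set and a test on simulated data. An exact two-sided permutation p could not fall under 0.333 in this design. Precision is limited by the 4 arrays. Platform annotation gave 10069 probe sets 1 symbol, 198 several and 13732 none, and a RefSeq gene table led to 0 updates. No genome build is named, so no coordinates are printed.

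Genes and lists were chosen with earlier results of these data known. Pathway genes are named where an unadjusted p was under 0.05, and otherwise up to 3 of the brightest per role. From the marker and receptor target lists, genes with an unadjusted p under 0.05 are named. Alternative settings were quantile normalization, median centring, flooring at the 25th percentile, adding 64, keeping probe sets over the median or the 75th percentile of signal, arithmetic means, limma without the trend, the methods' one-factor analysis of variance, the replicate number as a block, omission of each pool and, chosen after seeing the data, the brightest probe set per gene.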

Additional observations from a re-analysis of the deposited data

How the results depend on the processing

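Each of the 16 probe sets was recomputed under up to 14 settings. The direction was kept in all of them for 10 probe sets, those of GPAM, PNPLA2, PLIN2, ANGPTL4 and LPIN2 and the brighter one of DGAT1. The signal filters, limma without the trend, the analysis of variance and the block reuse the same log2 ratio, so they cannot turn a direction. All but the DGAT1 one separated the diets, so that an omitted pool, the offset or arithmetic means could not turn them either. That leaves quantile normalization, median centring and, for dim probe sets, flooring. Median centring turned the brighter LPIN1 probe set to 0.011 on the log2 scale. With a pool left out, which leaves 1 pool in a diet that is assumed to vary like the other diet, the log2 ratios ran from -0.13 to 0.44 for AGPAT2, -0.29 to 0.21 for the dimmer DGAT1 probe set, -0.17 to 1.10 for DGAT2, -0.56 to 1.57 for the dimmer and -0.76 to 0.71 for the brighter LPIN1 probe set, and -0.45 to 1.88 for PNPLA3. Among other named genes they ran from -0.13 to 0.30 for GPAT4, -1.004 to 0.063 for the brighter LIPA probe set, -0.20 to 0.045 for NR1H3, -0.69 to 0.20 for the brighter CD163 and -0.49 to 0.16 for the brighter COL1A2 probe set.

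The count at an unadjusted p under 0.05 was 5 of the 16. It was 3 with an offset of 64, 3 above the 75th percentile of signal, 2 in limma without the trend, 1 by the one-factor analysis of variance and 3 to 7 with a pool left out (3 without carnitine pool 2). The 6 of the pathway list became 2 without the trend, 1 by the analysis of variance and 1 to 8 with a pool left out (1 without carnitine pool 2, 2 without control pool 1). Above the 75th percentile, which keeps 8 of the 16, 3 differed by 2-fold and 4 separated the diets. A 2-fold difference was found in 4 to 8 with a pool left out. Separation was found in 5 for the brightest probe set of each gene, and in 11 to 15 with a pool left out, where fewer pairings are made. The median log2 ratio of -0.03 was 0.0043 with median centring, 0.15 above the median signal, 0.064 for the brightest probe sets and -0.35 to 0.042 with a pool left out.

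With the replicate number as a block, 4 of the 16 passed an adjusted p of 0.05 in limma, the brightest probe sets of PNPLA2 (0.0153), ANGPTL4 (0.0172), GPAM (0.0330) and PLIN2 (0.0367), and 0 did in the other settings with a test. The number alone is shared between diets, and deviations of same-numbered pools from their diet mean correlated at r = 0.0049 over 23999 probe sets. The block leaves 1 residual degree of freedom and called 106 probe sets in all, against 1 without it.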

Other observations

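PLIN2 and ANGPTL4 are known targets of the fatty acid receptor PPARA in rodent and human liver. Of 20 other textbook targets 13 had a probe set, with 17 in all, and their median log2 ratio of carnitine to control was 0.19. By the brightest probe set of each gene, 10 lay above 0 and 3 below. Of the 17, the diets separated with carnitine higher in 4 and lower in 1, against 19.2% and 20.4% of all probe sets. At an unadjusted p under 0.05 in limma 0 were higher and 1 was lower with carnitine, against 4.72% and 3.93% of all probe sets, and 0 passed the adjusted p. The lower one was PDK4, a kinase that restrains glucose oxidation and is induced by fasting, with 3386 and 1744 for carnitine and 4711 and 6327 for control (log2 ratio -1.17, standard error 0.33, adjusted p = 0.421 in limma), and its log2 ratio was -0.69 without carnitine pool 2. The other PDK4 probe set overlapped between the diets. A part of PPARA in these differences was not tested.

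Among markers of other liver cells, CD163 of macrophages was higher with carnitine on its dimmer probe set (log2 ratio 1.49, standard error 0.48, and 0.89 without control pool 1) and overlapped on its brighter one (-0.25, standard error 0.35). COL1A2 of fibroblasts was lower on a dim probe set (-2.19, standard error 0.88, and -0.026 with flooring at the 25th percentile) and overlapped on its brighter one. These were 1 of 7 macrophage and 1 of 10 stellate and fibroblast probe sets with an unadjusted p under 0.05 in limma. Of all probe sets, 4.72% were higher and 3.93% lower by that rule. By the brightest probe set of each gene, 2 macrophage markers lay above 0 and 2 below. For stellate cells and fibroblasts, 2 lay above and 4 below. None of the marker probe sets passed an adjusted p of 0.05 in limma.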
